A study of Mus musculus with 20 samples.

Results

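The genes described here are 10 of the 39179 in the count tables: the DNA methyltransferase family with its recruiting factor (Dnmt1, Dnmt3a, Dnmt3b, Dnmt3l and Uhrf1) and the core of Polycomb repressive complex PRC2 (Ezh1, Ezh2, Eed, Suz12 and Rbbp4). They were chosen by name, and all 10 were found by symbol. RNA sequencing had been run on an immortalised epithelial line from the C57BL/6J mouse kidney, in 4 groups of 5 libraries each, all grown in DMEM with serum and uridine. Fh1 encodes fumarate hydratase of the TCA cycle. Fh1_fl_fl cells carry the floxed gene and are labelled wild type. The lines clone1 and clone19 are labelled as Fh1 deletion, and Rec cells as wild-type Fh1 re-expressed. Each clone is 1 line, so a difference between a clone and Fh1_fl_fl cannot be told apart from the history of that line. The labels say neither whether the libraries of a group are separate cultures nor from which clone Rec was made, and p-values therefore measure the spread between these libraries, which may be technical.

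DNA methylation at CpG sites is copied after replication by Dnmt1, which Uhrf1 brings to hemimethylated DNA, while Dnmt3a and Dnmt3b place methyl groups on unmethylated sites and Dnmt3l, which has no catalytic activity, assists them. PRC2 methylates histone H3 at lysine 27, a mark of repressed genes: Ezh2 or Ezh1 is the catalytic subunit, Eed reads the mark and activates the enzyme, Suz12 holds the complex together, and Rbbp4 binds histones there and in other chromatin complexes. Fumarate, which builds up when fumarate hydratase is lost, is known to inhibit the dioxygenases that remove both kinds of methylation. The transcripts of the writers are the subject here, and the methyl marks themselves were not measured in these libraries.

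Promoters were inspected because Dnmt1, Uhrf1 and Ezh2 are textbook targets of E2F factors, which drive genes of DNA replication. The RefSeq promoter table (build GRCm38.p6, 250 bases before to 50 after each start) held 17 promoters of the 10 genes. The words TTTCCCGC, TTTCGCGC, TTTGCCGC and TTTGGCGC, forms of the E2F site, were sought on both strands, and the words were chosen after the levels were known. At least 1 word occurred in a promoter of Uhrf1, Dnmt1, Ezh2 and Suz12, that is in 4 of 10 genes (40%), against 4.71% of the 9693 tested genes with a promoter in the table and 2.6% of all 27025 genes there. Counted by promoter, 4 of 17 (23.5%) held a word, against 3.87% of the 12419 promoters of tested genes and 2.26% of all 32851. Since Dnmt1, Uhrf1 and Ezh2 were known targets beforehand, these shares are a description and were not tested. Stretches of 60 bases with a word in capitals are shown for these 4 genes, and the bases just before the start of Dnmt3b and Ezh1, which hold none, are shown beside them for comparison. All are written 5′ to 3′ on the strand of the gene.
Uhrf1 (chr17:56304102-56304161, plus strand): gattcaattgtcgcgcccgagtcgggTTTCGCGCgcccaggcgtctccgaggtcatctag
Dnmt1 (chr9:20952809-20952868, minus strand): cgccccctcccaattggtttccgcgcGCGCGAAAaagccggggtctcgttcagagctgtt
Ezh2 (chr6:47595011-47595070, minus strand): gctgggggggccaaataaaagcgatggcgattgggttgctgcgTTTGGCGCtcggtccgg
Suz12 (chr11:79992861-79992920, plus strand): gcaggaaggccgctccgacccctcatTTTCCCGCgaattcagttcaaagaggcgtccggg
Dnmt3b (chr2:153649389-153649448, plus strand): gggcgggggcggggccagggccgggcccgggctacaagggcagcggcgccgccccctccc
Ezh1 (chr11:101226464-101226523, minus strand): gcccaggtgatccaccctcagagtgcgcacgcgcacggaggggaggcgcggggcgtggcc
The word of Dnmt1 shown here, GCGCGAAA, is TTTCGCGC read on the opposite strand and began 219 bases before the start. A second word, TTTGGCGC, began at base 34 after the same start. The word began 185 bases before the start in Uhrf1, 219 bases before it in Suz12 and at base 4 after it in Ezh2. A match is a run of letters and does not show that a factor binds there, and a missing match says only that these letters are not in the window. Among the replication genes described further on, 7 of the 17 with a promoter in the table (41.2%) held a word. The promoter of Dnmt3b held 30 CpG dinucleotides in 300 bases and that of Ezh1 23, against a median of 21 over promoters of tested genes.

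Gene totals ran from 5988447 to 18972176 counts per library, with a median of 10485784. The 10 genes were read as CPM, the count relative to library size, on sizes scaled by the trimmed mean of M-values (TMM). A count of 0 allows up to 3 counts, which is 0.158 to 0.501 CPM depending on the library, for counting error only. Replicate 3 of clone19 stood apart from its group: the locus Gm42418, which collects ribosomal RNA reads, took 8.202% of its counts and at most 0.463% elsewhere. Results on clone19 are therefore also given without it further on. Fh1 itself ranged from 108.2 to 122.9 CPM in clone1 and 73.59 to 91.58 in clone19, beside 84.72 to 97.17 in Fh1_fl_fl and 63.86 to 80.82 in Rec, a count over the whole gene that does not measure a deletion within it. The count does not show the re-expression in the label of Rec either. By the edgeR test described below, Rec was called lower than Fh1_fl_fl, clone1 and clone19 (log2 -0.37, -0.66 and -0.25). Clone1 was called higher than Fh1_fl_fl (log2 0.29).

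Marker genes of the labelled tissue and of other cell types were read in the same libraries. Of 11 kidney epithelial markers, 3 rose and 7 fell in clone1 against Fh1_fl_fl, where 38.0% of all tested genes rose and 40.5% fell. In clone19, 2 rose and 9 fell, beside 36.8% and 36.1% of all, and in Rec 3 rose and 5 fell, beside 33.4% and 37.4%. The claudin gene Cldn3, at 142.6 ± 27.3 CPM in Fh1_fl_fl, fell to 3.63 ± 0.915 and 14.8 ± 2.55 in clone1 and clone19, and the adhesion gene Epcam from 439.4 ± 29.3 to 86.7 ± 13.8 and 225.9 ± 13.2. The kidney transcription factor gene Pax2 fell from 272.3 ± 20.4 to 45.4 ± 4.52 and 42.0 ± 8.98 CPM, and the keratin gene Krt8 from 565.0 ± 48.1 to 381.2 ± 37.1 and 242.7 ± 23.0. In Rec, Cldn3, Epcam, Pax2 and Krt8 were at 48.4 ± 5.51, 422.2 ± 15.9, 96.0 ± 4.14 and 959.2 ± 64.9 CPM. Krt19 and Pax8 went the other way and rose in both clones (log2 0.88 and 0.94 in clone1, 0.40 and 0.27 in clone19), and Krt18 rose in clone1 (0.23) and fell in clone19 (-0.83). The sum of the 11 was 2764 to 3418 CPM in clone1 and 2225 to 2543 in clone19, below every Fh1_fl_fl (3766 to 4413) and Rec library (4558 to 5049). The keratins Krt18 (1159 ± 74.0 CPM), Krt8 and Krt19 (682.1 ± 53.8) had the highest means of the 11 in Rec. Among markers of other cell types, a few genes carried most of each sum. Of 10 fibroblast and smooth muscle markers 3 were tested, and Col1a1, Pdgfra and Dcn were called higher in both clones, Dcn reaching 8.501 ± 0.597 CPM in clone19 against 0.299 ± 0.147 in Fh1_fl_fl. These 3 averaged at most 0.6004 CPM in Fh1_fl_fl and 0.7318 in Rec. They passed the filter on low counts only through the clones, so the direction of these calls was partly set by the filter. The 10 summed to 4.122 to 6.933 CPM in clone1 and 12.25 to 15.43 in clone19, beside 1.433 to 1.813 in Fh1_fl_fl and 1.309 to 2.065 in Rec. Pdgfrb, Lum and Thy1 were at 0 in all 20 libraries, Col3a1 had 2 counts in clone19 and 0 in the other groups, and Col1a2 averaged 0.148 CPM in Fh1_fl_fl and 0.0194 and 0.07 in clone1 and clone19. Acta2 and Tagln averaged at most 0.0611 and 0.109 CPM in any group. Cdh5 made up most of the sum of 5 endothelial markers in the clones, at 1.70 ± 0.644 CPM in clone1 and 7.92 ± 0.918 in clone19 beside 0.121 ± 0.0754 in Fh1_fl_fl and 0.515 ± 0.267 in Rec, while Kdr, Tek and Emcn averaged at most 0.0808 in any group. The 5 summed to at most 2.863, 9.8, 0.539 and 1.145 CPM in these groups. Cd68 made up most of the sum of 6 leukocyte markers, at 7.61 ± 0.998, 18.1 ± 1.27, 3.97 ± 0.468 and 2.62 ± 0.802 CPM in the same order, with the 6 together at most 10.56, 20.83, 5.297 and 4.237. Their part in the clone differences was not tested.

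The pattern over groups differed from gene to gene. Both clones had less Dnmt3b and Dnmt3a and more Ezh1, Ezh2, Eed and Suz12 transcript than Fh1_fl_fl. Dnmt1 was lower in clone1, and the difference between the clones was itself past the threshold. Rec differed from Fh1_fl_fl in 8 of the 9 tested genes, beside 70.8% of all tested genes. It had the most Uhrf1, Dnmt1, Ezh2 and Suz12 of the 4 groups and the least Ezh1. Of the 10 genes, 9 passed the filter on low counts and were tested with edgeR's quasi-likelihood test among 12671 genes, a gene being called at a Benjamini-Hochberg adjusted p under 0.05.

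**Figure D1:**
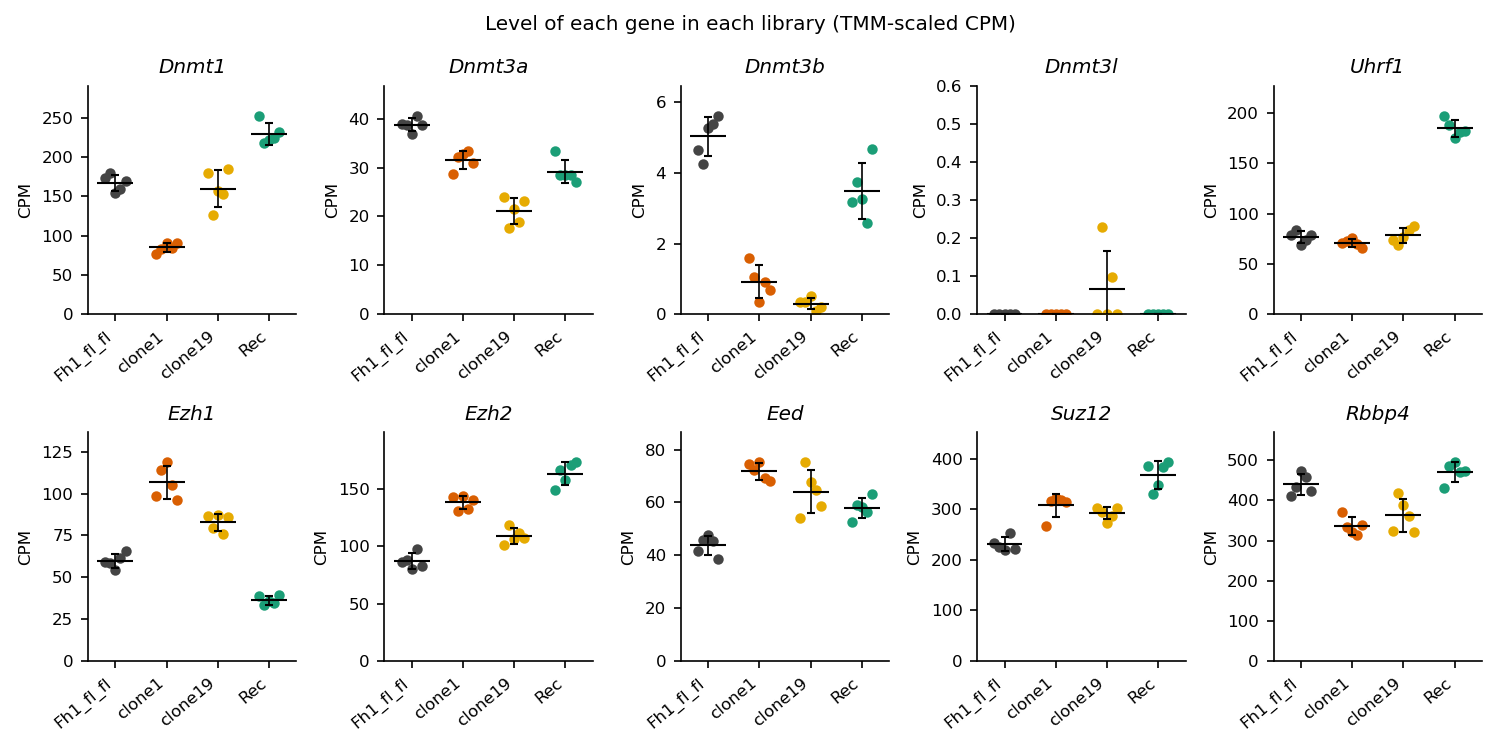
Level of each of the 10 genes in each library: CPM on a linear axis from 0, 1 point per library, with the group mean and SD as bars (n = 5). The 5 Rec libraries lie between 174.7 and 197.3 CPM for Uhrf1, where no other library passes 88.13, and Dnmt3b lies at or below 1.594 CPM in the 10 clone libraries against at least 2.589 in the others.

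Dnmt1 (ENSMUSG00000004099; GRCm38 chr9:20907209-20959888, minus strand) is the maintenance methyltransferase. In Fh1_fl_fl, replicates 1 to 5, it had 173.9, 179.6, 154.3, 159.2 and 169.7 CPM. In clone1 it had 76.89, 82.72, 90.46, 84.89 and 91.19. All 5 clone1 libraries lay below all Fh1_fl_fl libraries. The fitted log2 fold change was -0.97 (adjusted p = 1.55e-11, SE 0.08), which is 1.96-fold lower. The clone19 libraries had 179.8, 125.9, 156.6, 153.5 and 184.7 CPM and spread over the Fh1_fl_fl range on both sides. Their log2 difference from Fh1_fl_fl was -0.06 (95% interval -0.23 to 0.10, adjusted p = 0.466), and scaling to library totals gave -0.19 (adjusted p = 0.0474). The clones differed from each other by 0.91 on the log2 scale (adjusted p = 1.88e-10, SE 0.08), clone19 being higher in 5 of 5 libraries. In Rec the gene had 252.8, 218.3, 221.4, 224.1 and 232.3 CPM, above every library of the other 3 groups. Rec exceeded Fh1_fl_fl by 0.46 (adjusted p = 8.37e-06, SE 0.08), clone1 by 1.43 (adjusted p = 4.99e-15, SE 0.08) and clone19 by 0.52 (adjusted p = 1.25e-06, SE 0.08), all on the log2 scale.

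Uhrf1 (ENSMUSG00000001228; chr17:56303321-56323486, plus strand), which recognises hemimethylated DNA and recruits Dnmt1, passed no test in either clone. It had 78.65, 83.51, 68.34, 73.67 and 78.25 CPM in Fh1_fl_fl, 70.62, 72.75, 75.93, 70.08 and 65.42 in clone1, and 73.66, 69.12, 76.83, 83.44 and 88.13 in clone19. These 3 groups overlapped. The log2 difference from Fh1_fl_fl was -0.11 in clone1 (95% interval -0.25 to 0.03, adjusted p = 0.142) and 0.04 in clone19 (95% interval -0.10 to 0.17, adjusted p = 0.638). With library totals as the scale the clone1 value was -0.25 (adjusted p = 0.00382), a scaling that moved the median of all tested genes from -0.03 to -0.17 in that comparison, from 0.00 to -0.12 in clone19 against Fh1_fl_fl and from -0.03 to -0.17 in Rec. The difference between the clones (0.14, adjusted p = 0.0665) passed without replicate 3 of clone1 (0.17, adjusted p = 0.0458) or replicate 2 of clone19 (0.19, adjusted p = 0.017). Rec stood far above, at 197.3, 187.9, 174.7, 181.1 and 182.6 CPM, 2.42-fold higher than Fh1_fl_fl (log2 1.27, adjusted p = 2.02e-15, SE 0.07), 2.6-fold higher than clone1 and 2.36-fold higher than clone19.

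The balance of the maintenance pair was read within each library as the log2 ratio of counts plus 0.5, which does not depend on scaling between libraries. There were 6 such ratios and 6 comparisons each, tested by an exact two-sided permutation test of 5 against 5 libraries, whose smallest possible p is 0.00794, and adjusted over all 36. The Uhrf1 to Dnmt1 ratio had a geometric mean of 0.457 in Fh1_fl_fl (range 0.443 to 0.465), 0.833 in clone1 (0.718 to 0.918), 0.491 in clone19 (0.41 to 0.549) and 0.804 in Rec (0.78 to 0.861). It was higher in clone1 and in Rec than in Fh1_fl_fl, by 0.87 and 0.82 on the log2 scale, in 5 of 5 libraries each (exact permutation adjusted p = 0.0124 for both). In clone1 only Dnmt1 of the pair was called, as lower, whereas in Rec both genes were called higher. The clone19 difference from Fh1_fl_fl was 0.10 (exact permutation adjusted p = 0.296), and without replicate 1 of clone19 it was 0.17 (exact permutation adjusted p = 0.0119).

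Among the enzymes that methylate new sites, Dnmt3b (ENSMUSG00000027478; chr2:153649450-153687730, plus strand) had the widest range over groups of all 9 tested genes, 11.2-fold between the highest and lowest group. It was a scarce transcript throughout: the 5 Fh1_fl_fl libraries held 95, 41, 65, 75 and 78 counts, or 4.655, 4.259, 5.269, 5.374 and 5.62 CPM. In clone1 there were 16, 11, 3, 6 and 8 counts (1.594, 1.066, 0.3301, 0.9161 and 0.6941 CPM). In clone19 there were 2, 3, 3, 1 and 2 counts (0.3318, 0.3456, 0.525, 0.0984 and 0.2047 CPM), so that no library held more than 3. Rec held 34, 38, 40, 22 and 81 counts, at 3.179, 3.736, 3.272, 2.589 and 4.691 CPM. Every clone library lay below every Fh1_fl_fl and Rec library. Relative to Fh1_fl_fl, the fitted log2 change was -2.43 in clone1 (adjusted p = 6.55e-10, SE 0.24) and -4.15 in clone19 (adjusted p = 9.44e-12, SE 0.33). With replicate 3 of clone19 left out, the clone19 value was -4.37. Rec was 1.41-fold lower than Fh1_fl_fl with overlapping libraries (log2 -0.50, adjusted p = 0.0173, SE 0.18), a call lost without replicate 4 of Rec (log2 -0.40, adjusted p = 0.0595). The clones overlapped and differed by -1.72 (clone19 minus clone1, adjusted p = 0.00205). Rec exceeded clone1 by 1.94 (adjusted p = 1.25e-07) and clone19 by 3.65 (adjusted p = 4.02e-10). In bulk libraries fewer cells with the transcript and less transcript per cell cannot be told apart.

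Dnmt3a (ENSMUSG00000020661; chr12:3806007-3914443, plus strand), the other enzyme of this kind, changed less. It had 38.91, 38.64, 36.89, 40.63 and 38.69 CPM in Fh1_fl_fl, 28.68, 32.16, 32.79, 33.44 and 30.98 in clone1, 24.05, 17.74, 21.53, 18.89 and 23.24 in clone19, and 33.38, 28.41, 28.55, 28.6 and 27.1 in Rec. All 15 libraries of the other 3 groups lay below the 5 Fh1_fl_fl libraries, and clone19 lay lowest without overlap. The log2 changes from Fh1_fl_fl were -0.30 in clone1 (adjusted p = 0.000875, SE 0.08), -0.89 in clone19 (adjusted p = 1.62e-10, SE 0.08) and -0.41 in Rec (adjusted p = 2.38e-05, SE 0.08). Rec did not differ from clone1 past the threshold (log2 -0.11, 95% interval -0.27 to 0.05, adjusted p = 0.183), and it exceeded clone19 by 0.48 (adjusted p = 1.02e-05). Dnmt3l (ENSMUSG00000000730; chr10:78041947-78063622, plus strand), the germ-cell and embryonic cofactor, had 2 counts in replicate 2 of clone19, 1 in replicate 4 and 0 in the other 18 libraries, and was not tested.

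The proportion of the 2 active enzymes differed between clones and controls. The Dnmt3a to Dnmt3b count ratio had a geometric mean of 7.68 in Fh1_fl_fl, 36.1 in clone1 and 63.8 in clone19, beside 8.4 in Rec. Both clones differed from Fh1_fl_fl, by 2.23 and 3.06 on the log2 scale (exact permutation adjusted p = 0.0124 each, 5 of 5 libraries higher), and the value for Rec was 0.13 (exact permutation adjusted p = 0.545). Between the clones the difference of 0.82 did not pass (exact permutation adjusted p = 0.169). Per kilobase of annotated exon, Dnmt3b made up 29.7 ± 2.44% of the Dnmt3a and Dnmt3b signal in Fh1_fl_fl, 8.65 ± 4.46% in clone1 and 4.42 ± 2.31% in clone19, beside 27.95 ± 5.37% in Rec (SD, n = 5). Annotated exons cover 16642 bases of Dnmt3a and 5106 of Dnmt3b, so unused Dnmt3a exons would make these Dnmt3b shares too high. The clone19 share rests on at most 3 Dnmt3b counts per library.

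Ezh1 (ENSMUSG00000006920; chr11:101191115-101226463, minus strand), the catalytic PRC2 subunit that prevails in non-dividing cells, rose in both clones and fell in Rec. Fh1_fl_fl had 58.8, 58.69, 53.99, 61.7 and 65.64 CPM. Clone1 had 98.5, 114.4, 118.8, 105.4 and 96.31, and clone19 had 86.43, 79.25, 87.33, 75.67 and 85.98. Rec had 38.43, 33.13, 35.67, 34.48 and 39.26. None of the 4 groups overlapped with another, in the order clone1, clone19, Fh1_fl_fl and Rec from high to low. Against Fh1_fl_fl the log2 change was 0.84 in clone1 (adjusted p = 1.97e-11, SE 0.07), 0.47 in clone19 (adjusted p = 1.28e-06, SE 0.07) and -0.72 in Rec (adjusted p = 1.28e-09, SE 0.07). Rec was 2.94-fold lower than clone1 and 2.28-fold lower than clone19 (adjusted p = 8.6e-17 and 5.88e-14). The clones also differed from each other, by 0.37 on the log2 scale with clone1 the higher (adjusted p = 5.34e-05).

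Ezh2 (ENSMUSG00000029687; chr6:47530139-47595341, minus strand), the catalytic subunit typical of dividing cells, was higher in all 3 other groups than in Fh1_fl_fl. It had 86.59, 88.39, 79.93, 98.17 and 82.5 CPM in Fh1_fl_fl and 101.4, 119.2, 106.4, 111.5 and 107.1 in clone19. Clone1 had 142.9, 131.4, 144.1, 133 and 141 CPM, and Rec 149.2, 166.5, 158.4, 171.2 and 173.7. The 4 groups were again without overlap, now with Rec highest. The log2 change from Fh1_fl_fl was 0.67 in clone1 (adjusted p = 1.61e-10, SE 0.06), 0.33 in clone19 (adjusted p = 4.13e-05, SE 0.06) and 0.91 in Rec (adjusted p = 5.09e-13, SE 0.06). Without replicate 3 the clone19 change was 0.34. Rec exceeded clone1 by 0.24 (adjusted p = 0.000812) and clone19 by 0.59 (adjusted p = 3.02e-09), and clone1 exceeded clone19 by 0.34 (adjusted p = 2.73e-05).

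Both catalytic subunits thus rose in the clones, and in Rec they changed in opposite directions. The Ezh2 to Ezh1 count ratio had a geometric mean of 1.46 in Fh1_fl_fl (range 1.26 to 1.59), 1.3 in clone1 (at most 1.46), 1.32 in clone19 (1.17 to 1.5) and 4.52 in Rec (3.88 to 5.02). The first 3 groups overlapped and Rec lay apart. Differences of the clones from Fh1_fl_fl were -0.16 and -0.15 on the log2 scale (exact permutation adjusted p = 0.0914 and 0.154), which does not show the ratios to be equal. Rec differed from Fh1_fl_fl, clone1 and clone19 by 1.64, 1.80 and 1.78 (exact permutation adjusted p = 0.0124 each, 5 of 5 libraries higher). Per kilobase of exon, Ezh1 made up 38.14 ± 2.1% of the Ezh1 and Ezh2 signal in Fh1_fl_fl, 40.84 ± 2.62% in clone1 and 40.58 ± 2.76% in clone19, beside 16.58 ± 1.47% in Rec (SD, n = 5).

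**Figure D2:**
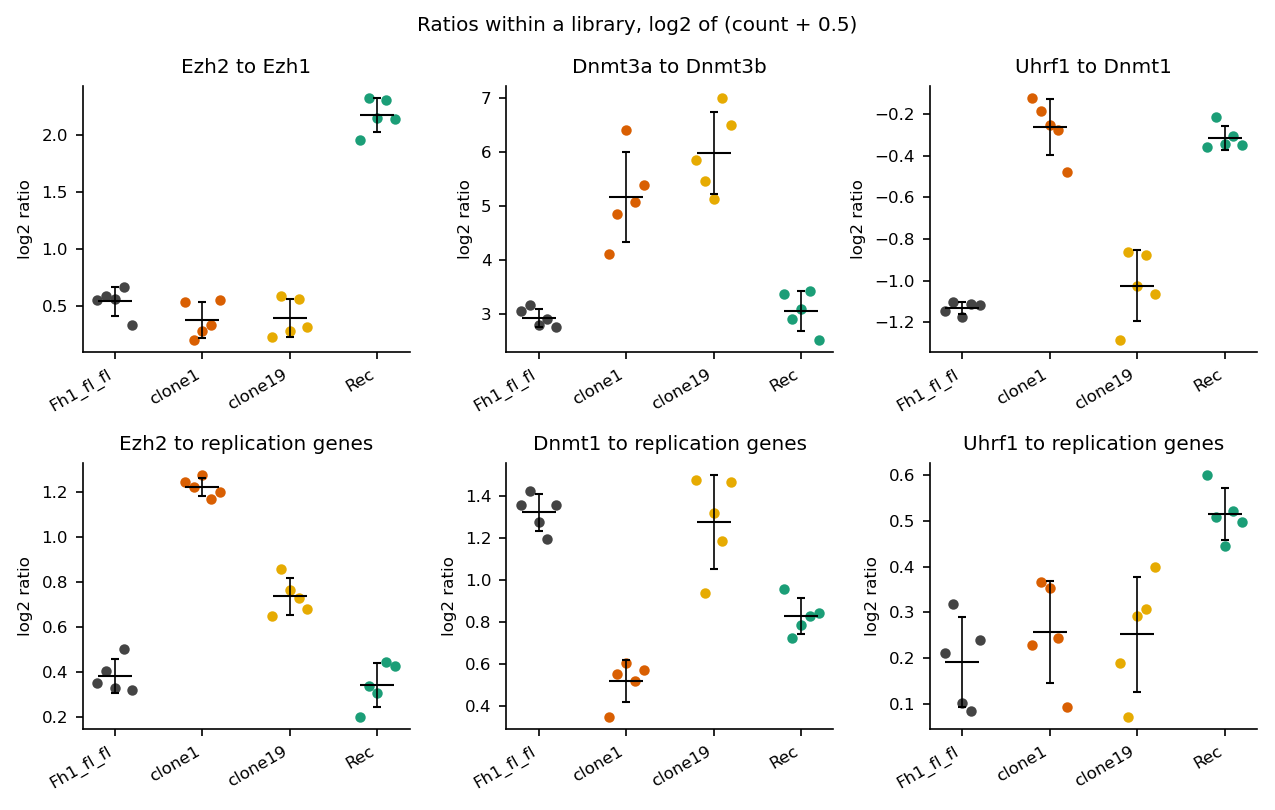
Ratios within a library as log2 of counts plus 0.5, 1 point per library with mean and SD (n = 5), on axes that differ between panels and do not start at 0. Rec sits apart from the other groups for Ezh2 to Ezh1 (1.956 to 2.327 against at most 0.67), clone1 and clone19 sit above the others for Dnmt3a to Dnmt3b, and clone1 sits highest for Ezh2 against the replication genes (1.168 to 1.277).

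Of the 3 non-catalytic core subunits, Eed (ENSMUSG00000030619; chr7:89954654-89980983, minus strand) was higher than Fh1_fl_fl everywhere. It had 41.7, 45.7, 47.59, 45.36 and 38.55 CPM in Fh1_fl_fl and 74.4, 72.46, 75.16, 69.17 and 67.94 in clone1. In clone19 it had 54.25, 75.22, 67.73, 64.65 and 58.55, and in Rec 52.73, 58.89, 58.16, 56.37 and 63.12. All 15 other libraries lay above those of Fh1_fl_fl, and clone19 overlapped with both clone1 and Rec. The log2 change was 0.72 in clone1 (adjusted p = 2.54e-09, SE 0.08), 0.55 in clone19 (adjusted p = 4.16e-07, SE 0.08) and 0.41 in Rec (adjusted p = 3.35e-05, SE 0.08). Rec was below clone1 by 0.31 (adjusted p = 0.00059). The clone19 to clone1 difference of -0.16 missed the threshold (adjusted p = 0.0635), but passed without replicate 3 of clone19 (-0.21, adjusted p = 0.0291), without replicate 2 of clone19 (-0.23, adjusted p = 0.00849), and without replicate 1 or 5 of clone1. The difference of Rec from clone19 (-0.15, adjusted p = 0.0863) passed without replicate 1 (-0.20, adjusted p = 0.0262) or 5 of clone19.

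Suz12 (ENSMUSG00000017548; chr11:79993106-80034123, plus strand), the scaffold, was also above Fh1_fl_fl in all 3 groups. It had 234, 225, 218.5, 253.2 and 221.3 CPM in Fh1_fl_fl and 266.7, 316.2, 323, 318.8 and 313.4 in clone1. Clone19 had 301.8, 294.2, 273.5, 286.9 and 301.9, and Rec 385, 330.1, 347.5, 384 and 393. The clones overlapped with each other, and Rec lay above all other libraries. Log2 changes from Fh1_fl_fl were 0.42 in clone1 (adjusted p = 8.58e-07, SE 0.06), 0.34 in clone19 (adjusted p = 2.17e-05, SE 0.06) and 0.68 in Rec (adjusted p = 2.27e-10, SE 0.06). Rec exceeded clone1 by 0.26 (adjusted p = 0.000454) and clone19 by 0.34 (adjusted p = 2.46e-05). The clones differed by -0.08 (95% interval -0.20 to 0.05, adjusted p = 0.284), which became -0.15 (adjusted p = 0.026) without replicate 1 of clone1, the low library of that group.

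Rbbp4 (ENSMUSG00000057236; chr4:129307100-129335370, minus strand), the histone-binding subunit shared with other complexes, went the other way from Eed and Suz12 in the clones. Fh1_fl_fl had 410.9, 433.6, 472.7, 458.5 and 423.7 CPM, clone1 371.8, 333.4, 320.7, 314.7 and 339.3, clone19 323.7, 417.5, 388.7, 360.4 and 322.1, and Rec 429.9, 486.5, 495.4, 471.7 and 472.9. Clone1 lay below Fh1_fl_fl throughout, while 1 clone19 library reached into the Fh1_fl_fl range. The log2 change was -0.39 in clone1 (adjusted p = 9.96e-06, SE 0.07) and -0.28 in clone19 (adjusted p = 0.000642, SE 0.07). Rec did not differ from Fh1_fl_fl past the threshold (0.10, 95% interval -0.04 to 0.24, adjusted p = 0.189) and was above clone1 by 0.49 (adjusted p = 3.01e-07) and clone19 by 0.38 (adjusted p = 1.68e-05). It had the narrowest range over groups, 1.4-fold. Since the strand setting of the counting is not given in the sources used here, reads of genes on the opposite strand may be included: exons of Sync and Gm26722 cover 8.94% and 9.1% of the Rbbp4 exon bases, an exon of E230029C05Rik 6.82% of those of Eed, and overlaps on the opposite strand were smaller for Dnmt3a, Dnmt3l, Ezh2 and Suz12.

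**Figure D3:**
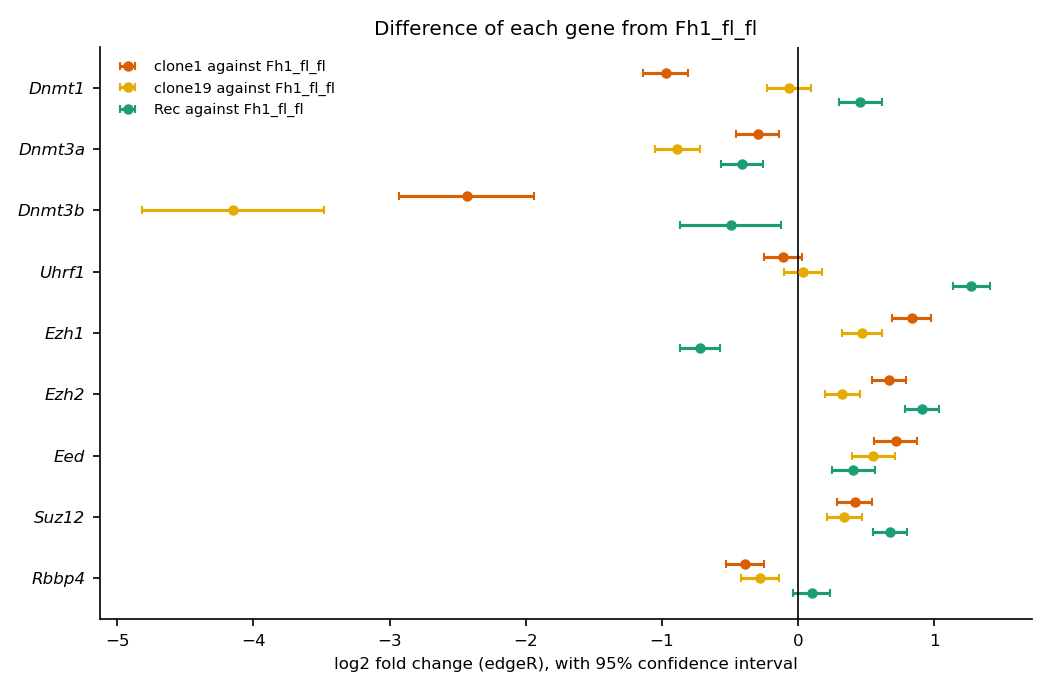
Log2 fold change from Fh1_fl_fl of the 9 tested genes (edgeR), 1 point per comparison with its 95% confidence interval, the vertical line marking no change. Ezh1 is the gene whose clone changes (0.84 and 0.47) and Rec change (-0.72) lie on opposite sides with intervals clear of 0.

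Counted together, 4 of the 9 tested genes rose in clone1 against Fh1_fl_fl, where 38.0% of all tested genes rose, and 4 fell, where 40.5% of all fell. In clone19, 4 rose against 36.8% of all genes and 3 fell against 36.1%. In Rec, 5 rose against 33.4% and 3 fell against 37.4%. Without replicate 3 of clone19, 7 genes were again called between clone19 and Fh1_fl_fl, at -0.05 for Dnmt1 and 0.05 for Uhrf1 (neither called), -0.89 for Dnmt3a, 0.46 for Ezh1, 0.54 for Eed, 0.37 for Suz12 and -0.30 for Rbbp4 beside the values given above. All 3 comparisons share the Fh1_fl_fl libraries. Rec against clone1 had 6 genes higher and 2 lower, beside 39.7% and 38.1% of all, and Rec against clone19 had 7 higher and 1 lower, beside 35.8% and 38.0%. Between the clones, 1 gene was higher in clone19 and 4 were lower, beside 33.5% and 31.6% of all. With most tested genes called in most comparisons, the number of calls does not set the 9 genes apart from the rest. Their median log2 change was -0.11 in clone1, 0.04 in clone19 and 0.41 for Rec, beside medians of -0.03, 0.00 and -0.03 over all tested genes.

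Only Ezh1 and Dnmt3b among the 9 separated the 10 libraries labelled Fh1 deletion from the other 10 without overlap. Ezh1 was higher in all of the former, as were 11.4% of all tested genes, and Dnmt3b was lower, as were 10.7%.

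Levels of different genes were compared as CPM per kilobase of annotated exon. In Fh1_fl_fl, Rbbp4 (50.3 ± 2.89) and Suz12 (46.6 ± 2.84) were highest and overlapped, followed by Dnmt1 (22.7 ± 1.41), Uhrf1 (18 ± 1.34), Ezh2 (13.1 ± 1.05), Eed (11.4 ± 0.946), Ezh1 (8.03 ± 0.577), Dnmt3a (2.33 ± 0.0798) and Dnmt3b (0.986 ± 0.11). Ezh2 and Eed overlapped, and the other neighbours did not. Among the methyltransferases listed here, the maintenance enzyme thus had the most abundant transcript in Fh1_fl_fl on this scale. In clone1 Dnmt1 fell to 11.6 ± 0.799, below Ezh2, Eed, Uhrf1 and Ezh1, and in Rec Uhrf1 (43.4 ± 1.98) stood above Dnmt1 (31.2 ± 1.88). These lengths take every annotated exon, so a gene with long unused exons is understated.

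A list of 22 replication and proliferation genes, chosen with results of these data known, moved with Rec. Of these, 21 rose and 1 fell in Rec against Fh1_fl_fl (median log2 1.05), 21 rose and 1 fell against clone1 (0.97) and 20 rose and 2 fell against clone19 (0.97), where the medians over all tested genes were -0.03, 0.01 and -0.02. In these comparisons 33.4%, 39.7% and 35.8% of all tested genes rose and 37.4%, 38.1% and 38.0% fell. The clones were mixed, 8 genes rising and 9 falling against Fh1_fl_fl in each (medians -0.06 and 0.12), beside 38.0% and 40.5% of all tested genes in clone1 and 36.8% and 36.1% in clone19. The summed level was 2374 to 2691 CPM in Fh1_fl_fl, against 2785 to 3099 in clone1 and 2634 to 2917 in clone19, beside 5349 to 5685 in Rec. By name, Rrm2, a subunit of ribonucleotide reductase, had 147.6 ± 9.43 CPM in Fh1_fl_fl, against 47.0 ± 4.43 in clone1 and 73.5 ± 4.50 in clone19, beside 571.8 ± 17.1 in Rec. Thymidylate synthase (Tyms) went from 82.4 ± 4.83 to 28.4 ± 1.37, 32.7 ± 3.41 and 119.2 ± 8.48 CPM, and the cyclin Ccne2 from 26.6 ± 1.91 to 8.93 ± 1.35, 20.3 ± 5.27 and 43.0 ± 3.77. The transcription factor E2f1 was highest in clone19, at 47.8 ± 4.82 CPM against 18.4 ± 1.54 in Fh1_fl_fl, 23.2 ± 1.20 in clone1 and 28.3 ± 2.61 in Rec.

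Ezh2, Dnmt1 and Uhrf1 were also set against the mean log2 count of these 22 genes within each library. Relative to them, Ezh2 had a log2 ratio of 0.38 ± 0.08 in Fh1_fl_fl, 1.22 ± 0.04 in clone1 and 0.74 ± 0.08 in clone19, beside 0.34 ± 0.10 in Rec (SD, n = 5). Ezh2 thus exceeded the replication genes by more in each clone than in Fh1_fl_fl, by 0.84 and 0.36 (exact permutation adjusted p = 0.0124 each, 5 of 5 libraries higher), and Rec differed from Fh1_fl_fl by -0.04 (exact permutation adjusted p = 0.571). Dnmt1 had ratios of 1.32 ± 0.09, 0.52 ± 0.10, 1.28 ± 0.22 and 0.83 ± 0.09 in the same order. It was lower against these genes in clone1 and Rec than in Fh1_fl_fl, by 0.80 and 0.49 (exact permutation adjusted p = 0.0124 each). The Rec to clone1 difference in this ratio, 0.31 by the mean (exact permutation adjusted p = 0.0124), was -0.08 when the median of the list was taken (exact permutation adjusted p = 0.369), and that of clone19 from Fh1_fl_fl went from -0.04 to 0.40 (exact permutation adjusted p = 0.0343). Uhrf1 had ratios of 0.19 ± 0.10, 0.26 ± 0.11, 0.25 ± 0.13 and 0.52 ± 0.06. It exceeded the list by 0.32 more in Rec than in Fh1_fl_fl (exact permutation adjusted p = 0.0124), whereas its differences of 0.26 and 0.26 between Rec and the clones (exact permutation adjusted p = 0.0124 each) turned to -0.13 for clone1 (exact permutation adjusted p = 0.0847) and -0.19 for clone19 (exact permutation adjusted p = 0.0343) with the median, the last passing in the opposite direction. The clones differed from Fh1_fl_fl by 0.07 and 0.06 with the mean (exact permutation adjusted p = 0.365 and 0.476) and by 0.44 and 0.50 with the median (exact permutation adjusted p = 0.0124 each).

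Around PRC2 itself, 9 of 10 listed accessory subunits and inhibitors were tested. In each clone 6 rose and 2 fell against Fh1_fl_fl (median log2 0.60 in clone1 and 0.63 in clone19), and in Rec 5 rose and 3 fell (0.32). Over all tested genes 38.0% rose and 40.5% fell in clone1, 36.8% and 36.1% in clone19, and 33.4% and 37.4% in Rec, with median log2 changes of -0.03, 0.00 and -0.03. Lcorl, whose locus encodes a PRC2-associated protein, had 50.5 ± 3.25 CPM in Fh1_fl_fl, against 102.5 ± 15.2 in clone1 and 140.3 ± 6.23 in clone19, beside 47.8 ± 5.95 in Rec. Rbbp7, the close relative of Rbbp4, rose where Rbbp4 fell: 374.1 ± 14.6 CPM in Fh1_fl_fl, against 473.1 ± 38.8 in clone1 and 723.2 ± 46.7 in clone19, beside 466.1 ± 29.6 in Rec, with log2 0.95 in clone19 (adjusted p = 1.33e-13). Of the Polycomb-like proteins that recruit PRC2, Phf19 fell in clone1 (7.28 ± 0.922 to 3.33 ± 1.01 CPM, log2 -1.11, adjusted p = 3.73e-07) and rose in clone19 (17.2 ± 2.10, log2 1.25, adjusted p = 1.31e-09). Phf1 rose in clone1 from 19.7 ± 2.14 to 42.4 ± 4.06 CPM (log2 1.104, adjusted p = 2.52e-11) and was at 9.87 ± 0.738 in Rec. In clone19 it was at 23.3 ± 3.37 (log2 0.23, adjusted p = 0.0399, and 0.17 with adjusted p = 0.12 without replicate 3 of clone19).

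PRC1, the complex that binds and extends Polycomb repression, gave no common direction. Of 22 tested subunits 10 rose and 6 fell in clone1, 9 rose and 6 fell in clone19, and 9 rose and 4 fell in Rec, the last turning to 4 and 9 when scaled to library totals. The shares of all tested genes that rose were 38.0%, 36.8% and 33.4%, and those that fell 40.5%, 36.1% and 37.4%. Median log2 changes of the subunits were 0.11, 0.17 and -0.02, beside -0.03, 0.00 and -0.03 over all genes. Bmi1, a subunit of canonical PRC1, fell from 148.4 ± 10.3 CPM to 64.6 ± 3.95 and 60.8 ± 3.88 in clone1 and clone19 (log2 -1.20 and -1.29, adjusted p = 1.97e-15 and 1.15e-15), and had 125.5 ± 8.93 in Rec. Pcgf5, the corresponding subunit of a variant PRC1, rose from 21.4 ± 0.824 to 59.3 ± 4.11 and 64.6 ± 3.85 CPM (log2 1.48 and 1.60, adjusted p = 1.66e-17 and 7.32e-18), with 30.1 ± 1.14 in Rec. Of the chromodomain readers, Cbx6 fell in both clones, from 202.5 ± 4.23 CPM to 94.3 ± 4.85 and 120.1 ± 10.7, with 162.6 ± 9.38 in Rec. Cbx7 went in opposite directions, from 3.15 ± 0.524 CPM to 1.63 ± 0.511 in clone1, with overlapping libraries, and 8.61 ± 0.464 in clone19. Its log2 changes were -0.99 and 1.43 (adjusted p = 0.000112 and 9.7e-09), and Rec had 6.21 ± 1.39.

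Among 17 tested partners and readers of DNA methylation, 5 rose and 10 fell in clone1 (median log2 -0.20), 4 rose and 9 fell in clone19 (-0.23), and 7 rose and 6 fell in Rec (0.05). Beside these stand 38.0% higher and 40.5% lower of all tested genes in clone1, 36.8% and 36.1% in clone19, and 33.4% and 37.4% in Rec (medians -0.03, 0.00 and -0.03). Zfp57, the zinc-finger protein that protects imprinted methylation, rose from 32.8 ± 4.09 CPM to 122.8 ± 25.6 and 86.3 ± 14.9 in clone1 and clone19 (log2 1.90 and 1.39, adjusted p = 1.44e-13 and 1.61e-10), with 36.8 ± 2.54 in Rec. The methyl-CpG reader Mbd1 fell from 26.6 ± 1.49 CPM to 11.3 ± 0.892 and 14.4 ± 1.60, and Rec had 9.36 ± 1.07. Setdb1, which methylates histone H3 at lysine 9, fell in both clones, from 92.9 ± 5.71 CPM to 42.5 ± 5.57 and 56.8 ± 2.66. Rec had 71.4 ± 3.65. The insulator protein Ctcf, whose binding is sensitive to methylation, also fell in both clones. It went from 131.1 ± 3.44 CPM to 69.5 ± 4.59 and 74.9 ± 7.97 (log2 -0.92 and -0.81, adjusted p = 2.49e-13 and 5.96e-12), with 161.9 ± 4.54 in Rec.

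Genes of the opposing activities were tested for 9 of 11 listed. In each clone 5 rose and 3 fell, and in Rec 4 rose and 5 fell, with median log2 changes of 0.65, 0.21 and -0.31. For all tested genes the medians were -0.03, 0.00 and -0.03, with 38.0%, 36.8% and 33.4% higher and 40.5%, 36.1% and 37.4% lower. Tet2, a dioxygenase that oxidises methylated cytosine, fell from 6.24 ± 0.865 CPM in Fh1_fl_fl to 0.352 ± 0.161 in clone19 (14 counts in the group, log2 -4.14, adjusted p = 2.96e-14), with 4.64 ± 0.900 in clone1 and 2.17 ± 0.196 in Rec. The stress-response gene Gadd45a, linked to DNA repair and demethylation, rose from 26.5 ± 2.23 CPM to 410.9 ± 28.4 and 203.3 ± 13.9 in clone1 and clone19 (log2 3.96 and 2.94, adjusted p = 7.31e-25 and 4.07e-22). In Rec it was at 71.5 ± 5.77. The cytidine deaminase gene Apobec1, with 8 counts over the Fh1_fl_fl libraries and 0 over the Rec libraries, reached 4.80 ± 0.455 CPM in clone1 and 1.77 ± 0.381 in clone19. Gadd45g rose in clone1 from 2.48 to 5.63 CPM (log2 1.20, adjusted p = 1.1e-06).

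Genes that make, use or recycle the methyl donor S-adenosylmethionine were tested as a further group. Of 10 tested genes of 14 listed, 8 rose and 2 fell in clone1, 6 rose and 2 fell in clone19, and 5 rose and 1 fell in Rec, that single decrease being a count of 0 to 2 over the alternatives. Of all tested genes, 38.0% rose and 40.5% fell in clone1, 36.8% and 36.1% in clone19, and 33.4% and 37.4% in Rec. The list had median log2 changes of 0.44 in both clones and 0.34 in Rec, where all tested genes had -0.03, 0.00 and -0.03. Mat2a, the catalytic subunit that makes the donor outside the liver, fell from 262.1 ± 13.4 CPM to 49.8 ± 12.3 and 85.0 ± 20.9 in clone1 and clone19 (log2 -2.41 and -1.63, adjusted p = 1.46e-14 and 4.07e-11), with 373.3 ± 28.3 in Rec. Nnmt, which consumes the donor to methylate nicotinamide, went from 0.601 ± 0.191 CPM to 10.3 ± 1.38 and 17.1 ± 2.98 (log2 4.07 and 4.82, adjusted p = 1.27e-15 and 2.34e-17) and was at 0.726 ± 0.296 in Rec. Nnmt passed the filter on low counts only through the clones. Ahcyl2, a relative of the enzyme that clears the used donor, rose from 52.1 ± 1.35 CPM to 161.8 ± 8.09 and 107.2 ± 7.41, with 53.1 ± 4.78 in Rec.

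**Figure D4:**
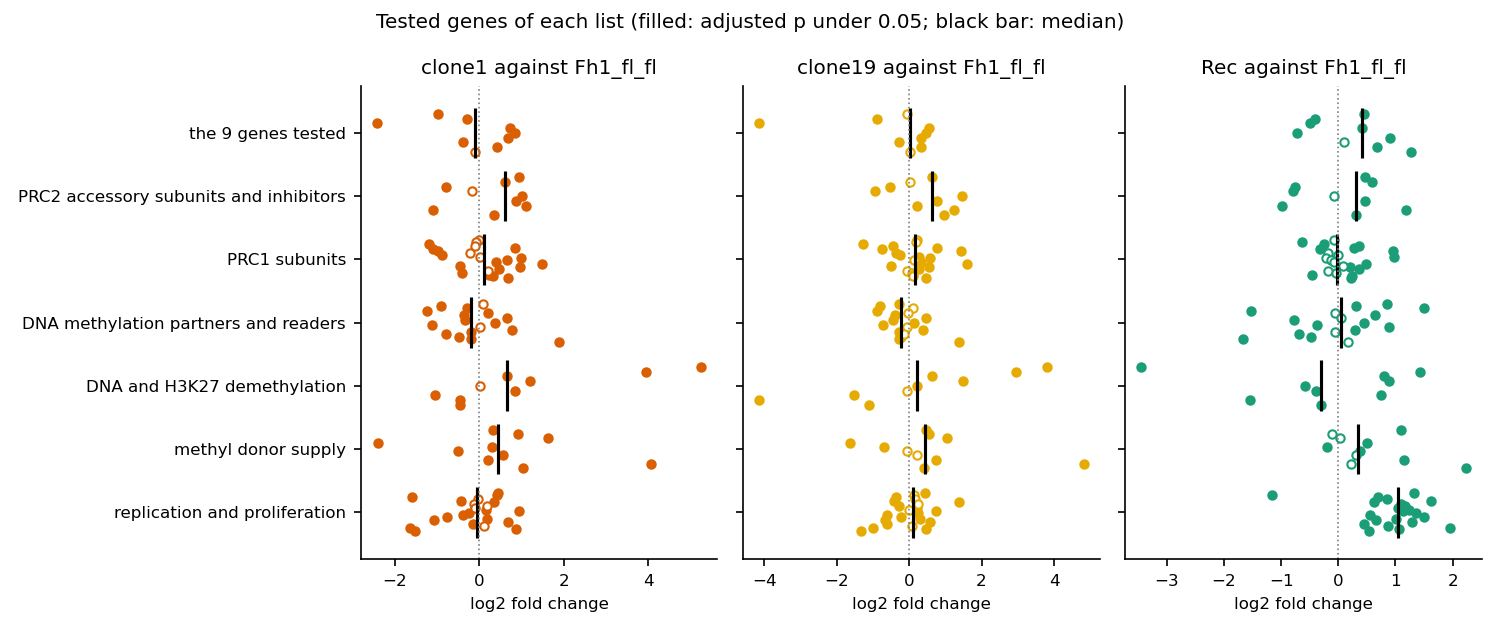
Log2 fold change from Fh1_fl_fl of every tested gene of 7 lists in clone1, clone19 and Rec (edgeR), filled where the adjusted p is under 0.05, with the list median as a black bar, on axes that differ between panels. The replication genes are spread around 0 in the clones (medians -0.06 and 0.12) and sit to the right in Rec (median 1.05), and the median of the 9 tested genes is 0.41 there.

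Germline genes that are known to be held silent by DNA methylation were also looked at, outside the writers. Of 15 listed, 3 had 0 counts in all libraries and 2 passed the filter. Taf7l, a germ-cell transcription factor subunit, had 5 counts over the 5 Fh1_fl_fl libraries (at most 0.196 CPM), 3.53 ± 0.741 CPM in clone1 and 7.30 ± 1.40 in clone19, beside 0.421 ± 0.191 in Rec. All 10 clone libraries lay above the others, as they did for 11.4% of all tested genes. Taf7l passed the filter on low counts only through the clones, so this separation was partly set by the filter. Its cause was not tested. Ddx4, the germ-cell helicase, went from 0.806 ± 0.226 CPM to 0.220 ± 0.185 in clone1 (log2 -1.92, adjusted p = 0.00262) and to 1.51 ± 0.746 in clone19 (log2 0.87, adjusted p = 0.0373, and 0.84 with adjusted p = 0.0605 without replicate 3 of clone19). The summed level of the 15 genes was 0.7205 to 1.568 CPM in Fh1_fl_fl, 3.197 to 5.802 in clone1, 7.963 to 11.75 in clone19 and 0.2354 to 1.868 in Rec, most of it from Taf7l in the clones. The other 13 genes did not pass the filter.

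The genes most like the 3 widest-ranging members over the 20 libraries were found by Pearson correlation of log2 CPM, given as a description, since all points share the 4 groups. For Dnmt3b they were Cd24a (r = 0.961), Ppbp (r = 0.96) and Patz1 (r = 0.954). For Ezh1 they included Fnip2 (r = 0.988) and Tfdp2 (r = 0.986). For Dnmt1 they were Zc3h18 (r = 0.978), Brca2 (r = 0.976) and Efnb2 (r = 0.976). Fnip2, for example, had 74.9 CPM in Fh1_fl_fl, against 169.8 in clone1 and 109.8 in clone19, beside 39.9 in Rec, the same order of groups as Ezh1.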

How the data were processed

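Whole-number read counts per Ensembl gene, 1 table per library and not normalized, were deposited by the authors. The submitters' processing notes name GRCm38, DESeq 1.10.1, HTSeq 0.5.3p9 and TopHat2 2.0.4, with annotation, strand setting and tool roles not given in the sources used here. Summary lines were left out of library sizes: 28.83 to 40.29% of a library had no unique alignment, 3.28 to 6.73% fell in no feature and 0.46 to 0.65% were ambiguous. Reads aligning to several places entered no gene, so genes with close copies can be undercounted.

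Symbols, positions and exon lengths came from GENCODE M21 (GRCm38), with 37693 of 39179 genes having a symbol, and all 156 listed genes were matched, 1 by a RefSeq synonym. Groups came from the sample titles. No 2 libraries of a group were identical. Tests used edgeR 4.0.16 in R 4.3.3: filterByExpr kept 12671 genes, 26508 were excluded, TMM factors were 0.898 to 1.077, and 1 quasi-likelihood model over all 20 libraries gave 6 comparisons with a biological coefficient of variation of 9.02%. The pipeline was tested on simulated counts. Within-library ratios were tested by exact permutation over 252 arrangements. The members and the other gene lists were chosen with earlier results of these data known. Named were all members, per list the 3 called genes with the largest change in each clone, and the 3 genes most like each of the 3 widest-ranging members, of which 1 is not reported here. Alternatives were other scalings (library totals, relative log expression), 2 other filters, DESeq2 1.42.0, a fit of only the 2 groups compared, a replicate block, leaving out each library, and for ratios another offset and the list median. Intervals and floors cover counting error or the spread of these libraries only.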

Additional observations from a re-analysis of the deposited data

Results flagged for a closer look

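In 61 groups of 5 values, the highest or lowest library was checked for a gap from the rest, which chance alone gives in about 1 of 20 groups, and 2 stood out. Dnmt3a in replicate 1 of Rec had 33.38 CPM, where the other 4 Rec libraries had 27.1 to 28.6. Suz12 in replicate 1 of clone1 had 266.7 CPM, where the other 4 had 313.4 to 323.

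The 2 clones, both labelled as Fh1 deletion, differed from each other in 5 of the 9 tested genes by edgeR's test of the difference itself, beside 65.1% of all tested genes. On the log2 scale, clone19 minus clone1 was 0.908 for Dnmt1, -0.589 for Dnmt3a, -1.716 for Dnmt3b, -0.365 for Ezh1 and -0.343 for Ezh2. Only Dnmt3b had overlapping libraries among these. In the within-library ratios, clone19 minus clone1 was -0.762 for Uhrf1 to Dnmt1, -0.487 for Ezh2 to the replication genes and 0.757 for Dnmt1 to the replication genes, each with an exact permutation adjusted p of 0.0124.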

How the results depend on the processing

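No fold change of the 9 genes reversed while past the threshold: of 917 alternative values for 54 fold changes, 897 kept their direction and side of the threshold, 14 passed it newly, 1 lost it (Dnmt3b in Rec, given above) and 5 changed sign while not called. Genes called ranged over the alternatives from 8 to 9 in clone1 and 7 to 8 in clone19 and Rec against Fh1_fl_fl, 8 in Rec against clone1, 8 to 9 against clone19 and 4 to 7 between the clones, where the main value was 5. Over all genes, calls ranged from 9715 to 11233 in clone1, 9017 to 10232 in clone19 and 8642 to 9537 in Rec against Fh1_fl_fl. They ranged from 9313 to 10942 in Rec against clone1, 8889 to 10371 against clone19 and 7510 to 8802 between the clones. The main fit called 78.6%, 72.9%, 70.8%, 77.9%, 73.8% and 65.1% of all tested genes in this order. Scaled to library totals, 3 genes and not 2 separated the deletion libraries from the others, beside 21.6% of all tested genes. With the main scaling 22.1% of all tested genes did so. Replicate numbers shared no more than the number: same-numbered libraries had a median correlation of deviations of 0.016, and 2 of 20 libraries correlated best with their own number. With a replicate block 8, 7, 8, 8, 8 and 6 of the 9 genes were called in the order given, and a sign-flip test of 5 pairs cannot reach the threshold for the ratios. With the list median, the ratio to replication genes of Dnmt1 was -0.082 for Rec minus clone1 and 0.397 for clone19 minus Fh1_fl_fl, and that of Uhrf1 -0.132 and -0.193 for Rec minus clone1 and clone19 (the latter past the threshold, opposite to the mean), 0.442 and 0.503 for clone1 and clone19 minus Fh1_fl_fl (both newly past it, from 0.066 and 0.061), and 0.061 for clone19 minus clone1, from -0.005; the cause was not tested. Leaving out each library gave -0.094 to 0.041 for Dnmt1 to replication genes and 0.065 to 0.171 for Uhrf1 to Dnmt1 (clone19 minus Fh1_fl_fl), and -0.033 to 0.058 for Ezh2 to Ezh1 and -0.046 to 0.04 for Uhrf1 to replication genes (clone19 minus clone1). Low Dnmt3b counts limit every statement on that gene in clone19.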
